A study of Homo sapiens with 4 samples.

Results

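The 10 genes described here encode inflammatory cytokines and inhibitors that act in the NF-kB pathway: IL1A, IL1B, IL6, CXCL8, CXCL1, CXCL2, CXCL16, CCL20, TNFAIP3 and NFKBIA. They were chosen by name as genes of this pathway, with earlier results of these arrays known, and each had 1 probe set annotated to its symbol alone. They are 10 of 20934 genes measured by such a probe set. RNA came from MCF10A, a non-tumorigenic human breast epithelial line, in 4 stably transfected forms grown untreated in SFIHE medium, with 1 array for each. One line carried Her2, the receptor tyrosine kinase encoded by ERBB2. Another carried PIK3CA-H1047R, a mutant of the catalytic chain of PI3-kinase, which such receptors activate. The other lines carried both of these or, as control, the bacterial enzyme gene LacZ. Neither the promoters that drive them nor whether a line is a clone or a pool is stated in the labels. The purpose stated there is to find the targets of the introduced genes, alone and combined. A single array a group leaves every difference without a replicate check, an SD or a p-value.

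NF-kB is a family of transcription factors held in the cytoplasm by inhibitors such as the protein of NFKBIA (IkB-alpha). Stimuli such as interleukin-1 lead to the breakdown of that inhibitor, and NF-kB then enters the nucleus and activates genes of cytokines and chemokines. It also activates NFKBIA itself and TNFAIP3 (A20, a ubiquitin-editing enzyme), which turn the pathway down again. In epithelial cells IL-1 alpha, IL-8 and the related chemokines serve as signals of damage that draw in neutrophils and other leukocytes.

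The promoters of 9 members were in the RefSeq table used here (GRCh38.p14), as windows from 250 bases before the transcription start to 50 after it, and that of CXCL16 is not shown. A form of the kB motif that NF-kB binds was in the stretch from 110 to 45 bases before the start of 7 members. That stretch is printed for these 7 and for IL1A, which had none and was the member interleukin that passed the filter described below. The motif searched on both strands was GGNNTTTCC, chosen with these sequences in view. Each sequence reads 5′ to 3′ on the strand of its gene, and capitals mark a match on either strand.
CXCL8 (chr4:73740459-73740524, plus strand): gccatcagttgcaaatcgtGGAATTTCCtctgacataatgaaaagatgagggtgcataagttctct
CXCL1 (chr4:73869283-73869348, plus strand): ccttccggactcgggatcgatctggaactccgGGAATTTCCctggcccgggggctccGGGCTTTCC
CXCL2 (chr4:74099240-74099305, minus strand): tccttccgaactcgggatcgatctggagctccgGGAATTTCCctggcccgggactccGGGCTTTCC
CCL20 (chr2:227813732-227813797, plus strand): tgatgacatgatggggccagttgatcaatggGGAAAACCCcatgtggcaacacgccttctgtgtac
IL6 (chr7:22727090-22727155, plus strand): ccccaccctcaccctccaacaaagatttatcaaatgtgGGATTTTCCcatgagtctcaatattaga
TNFAIP3 (chr6:137867149-137867214, plus strand): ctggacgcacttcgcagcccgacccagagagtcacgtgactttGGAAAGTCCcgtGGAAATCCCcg
NFKBIA (chr14:35404794-35404859, minus strand): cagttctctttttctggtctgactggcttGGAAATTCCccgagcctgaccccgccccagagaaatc
IL1A (chr2:112784538-112784603, minus strand): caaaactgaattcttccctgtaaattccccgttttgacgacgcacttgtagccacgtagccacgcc

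The kB motif was in the promoter windows of 7 members, IL6, CXCL8, CXCL1, CXCL2, CCL20, TNFAIP3 and NFKBIA, and in 6.26% of the 35116 promoter windows of the table. TNFAIP3 had a pair of matches, which begin 67 and 55 bases before the start. CXCL1 and CXCL2 also had a pair each in the printed stretch, which begin 78 and 53 bases before the start of CXCL1 and 77 and 53 before that of CXCL2, and the matched letters are the same in these genes. NFKBIA had a further match 242 bases before its start, outside the stretch. The windows of IL1A and IL1B held no match, which says only that these letters are not there. IL1A and CXCL8 held TGACTCA, the motif of AP-1 factors, outside the stretch shown, and it was in 4.95% of all windows. Such matches describe the sequence and are not evidence of binding. The members were picked as genes of this pathway, so their share of kB motifs is not a result of these arrays.

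Values below are on the deposited log2 scale, where 2-fold is a difference of 1. The arrays had medians over all 53617 probe sets of 1.13 to 1.17. Genes that reached 5 on at least 1 array were counted, 4313 in all, and 4 of the 10 members did so. NFKBIA passed on all 4 arrays and IL1A on all but LacZ. TNFAIP3 passed through the array labelled mutant PIK3CA alone, and CXCL16 through the LacZ array alone, at 5.04, so both had to differ between arrays to be counted. CXCL8, at 4.75 on its highest array, was just below. The probe set that reads ERBB2, which is also annotated to a microRNA gene inside it, was the check of the labels. It read 4.29 where the label is Her2, 8.48 where it is mutant PIK3CA, 7.39 where it is both and 5.96 on the LacZ array. It was thus lower than LacZ where Her2 is the label (a difference of -1.67) and higher by 2.52 where the label names only mutant PIK3CA. The introduced PIK3CA could not be checked, since 0 probe sets carry that symbol. Groups are therefore given as labelled. If the 2 single-gene labels were exchanged, their values below would change places, and the comparison of the array labelled with both against LacZ would stand as it is.

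The basal epithelial marker KRT5 was at 7.08 to 7.52 on the 4 arrays, while KRT14, another basal keratin, was at 1.47 to 3.43. The leukocyte marker PTPRC was at 0.53 to 0.93, below the median of every array. CD68, a lysosomal protein of macrophages that other cells also make, was the 1 counted gene of the leukocyte list and reached 6.78 on the array labelled with both, against 4.68 on LacZ.

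**Figure D1:**
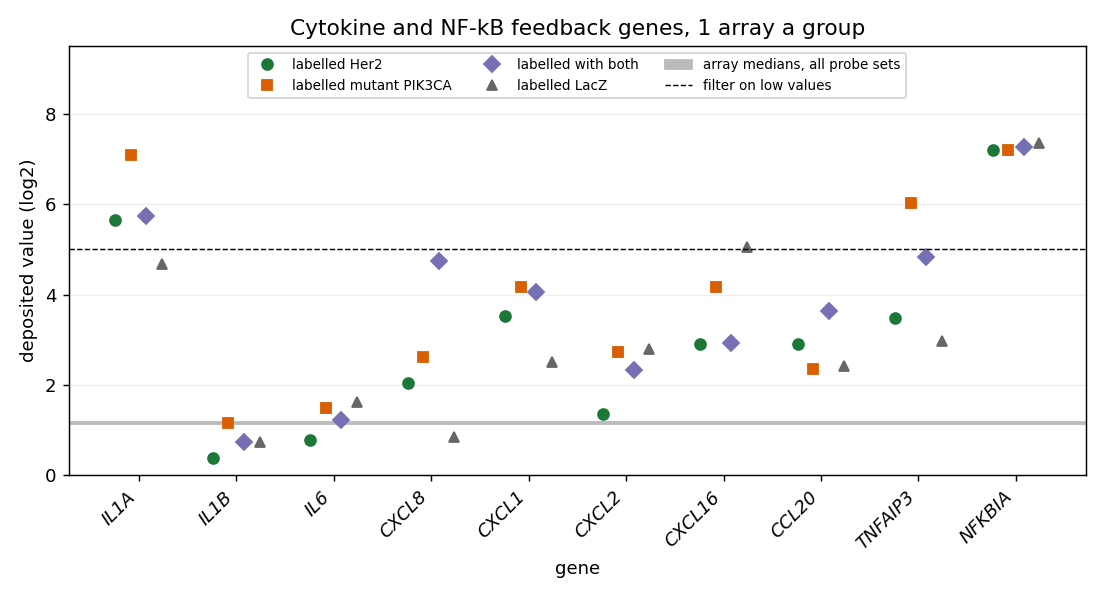
Deposited log2 value (vertical axis) of each of the 10 genes (horizontal axis) on the arrays labelled Her2, mutant PIK3CA, both and LacZ, 1 point an array, with the array medians (1.13 to 1.17) in grey and the filter at 5 dashed. NFKBIA lies between 7.19 and 7.35 on all 4 arrays, IL1B stays at or below 1.16, and IL1A and TNFAIP3 are highest on the array labelled mutant PIK3CA.

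Of the 10 genes, 0 were highest on the array labelled Her2, 4 on that labelled mutant PIK3CA (IL1A, IL1B, CXCL1 and TNFAIP3), 2 on that labelled with both (CXCL8 and CCL20) and 4 on LacZ (IL6, CXCL2, CXCL16 and NFKBIA). The genes thus did not move as 1 group.

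Among the interleukins, IL1A was the one measured well above the array medians. IL1A encodes interleukin-1 alpha, a cytokine that epithelial cells store and release on damage. It read 5.65 on the array labelled Her2, 7.08 on that labelled mutant PIK3CA, 5.73 on the array labelled with both and 4.68 on the LacZ array. The array labelled mutant PIK3CA was the high one, by 2.40 log2 units over LacZ (5.28-fold), and 30 of the 4313 counted genes had a larger difference upwards there. Against LacZ the array labelled with both differed by 1.05 and that labelled Her2 by 0.97, so these lay on either side of the 2-fold line by small margins. It was lower with both labels than with mutant PIK3CA alone (a difference of -1.35).

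IL1B, the inducible partner of IL1A in the same gene cluster, read 0.38 on the array labelled Her2, 1.16 on that labelled mutant PIK3CA, 0.73 on that labelled with both and 0.73 on the LacZ array. All 4 values lay below the median of their array. IL6, the ligand of the IL6R and IL6ST receptor pair, read 0.78 with Her2, 1.5 with mutant PIK3CA, 1.22 with both and 1.62 with LacZ. These values of IL6 are close to the array medians too, and differences at this level do not show whether a transcript changed.

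The chemokines did not share 1 pattern. CXCL8 encodes interleukin-8, a chemokine that attracts neutrophils. It read 2.04 on the array labelled Her2, 2.61 on that labelled mutant PIK3CA, 4.75 on that labelled with both and 0.84 on the LacZ array, the widest range of the 10 genes at 3.91. All 3 arrays with an introduced oncogene were above LacZ, by 1.20, 1.77 and 3.91 log2 units in that order. The value on the LacZ array lay below its median, so the differences from LacZ, the range and the departure from additivity given below all rest on a reading at background. The array labelled with both was higher than that labelled mutant PIK3CA by 2.14 and than that labelled Her2 by 2.71. The 11 measured leukocyte markers of 12 summed on the linear scale to 62.3 with Her2, 106 with mutant PIK3CA, 134 with both and 56.9 with LacZ. CD68 alone made 82.0% of the sum with both, and the other 10 genes summed to 24.3 with both, against 31.3 with LacZ, with 8 of them lower. The 5 measured endothelial markers of 6 summed to 21.2, 11.4, 34.6 and 22.5 in that order. KDR alone made 80.9% of the sum with both, and the other 4 genes were all lower there than on LacZ. High sums of the leukocyte and endothelial lists on the array where CXCL8 was highest thus came from 1 gene in each. The fibroblast list, described below, had a high sum there too. Its 7 genes other than DPT summed to 149 with both, against 35.0 with LacZ, with 4 of them lower. The part of all these markers in the value of CXCL8 was not tested.

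CXCL1, a neutrophil chemokine that shares its receptor CXCR2 with interleukin-8, read 3.52 with Her2, 4.18 with mutant PIK3CA, 4.05 with both and 2.50 with LacZ. It too was higher than LacZ on all 3 arrays, by 1.01, 1.67 and 1.55, but the array labelled with both was not above that labelled mutant PIK3CA (a difference of -0.13). CXCL2, a close paralogue of CXCL1, read 1.37 with Her2, 2.73 with mutant PIK3CA, 2.32 with both and 2.79 with LacZ. It was highest on LacZ, and the difference on the array labelled Her2 was -1.42. That difference, and the departure from additivity given below, rest on a reading close to the array median of 1.16. They do not show whether the transcript changed. The readings of CXCL1 and CXCL2 went opposite ways on the array labelled Her2. Yet 78.8% of the 250 bases before the start of CXCL1 are identical to those of CXCL2 in a global alignment. For CXCL1 and CXCL8 it was 50%. Paralogues of this family are alike in sequence, and whether their probes also read each other was not tested.

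CCL20, a chemokine that draws in cells bearing CCR6, read 2.91 with Her2, 2.34 with mutant PIK3CA, 3.63 with both and 2.42 with LacZ. The array labelled with both stood out, by 1.20 over LacZ and 1.28 over that labelled mutant PIK3CA. CXCL16 is made as a membrane-bound chemokine and shed by the proteases ADAM10 and ADAM17. It read 2.91 with Her2, 4.16 with mutant PIK3CA, 2.94 with both and 5.04 with LacZ. It was lower than LacZ on all 3 arrays, by differences of -2.13, -0.89 and -2.10 in that order, and 7 of all 20934 genes had a larger difference downwards on the array labelled Her2. Normalized again over the counted genes alone, the array labelled with both differed from LacZ by -3.11 (quantile) and -4.09 (cyclic loess). Over all named genes the same methods gave -2.24 and -2.12.

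A few fibroblast markers were high on the arrays where CXCL16 was lowest. The 8 measured genes of 10 in that list summed on the linear scale to 407 on the array labelled Her2, 55.0 on that labelled mutant PIK3CA, 381 on that labelled with both and 45.6 on LacZ. On the array labelled Her2, DPT (8.38) made 81.6% of the sum and FAP (5.92) was also over 2-fold above LacZ, while LUM (0.63) and DCN (0.57) lay below the array median. DPT (7.86), LUM (6.26) and DCN (5.06) were over 2-fold above LacZ on the array labelled with both. Of the 7 genes other than DPT, 4 were lower than LacZ on each of these arrays, and COL1A2 was at 0.73 to 0.87 on all arrays, below their medians. The part of other cells in these values was not tested, and in such bulk RNA fewer cells of a type and less RNA per cell cannot be told apart.

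**Figure D2:**
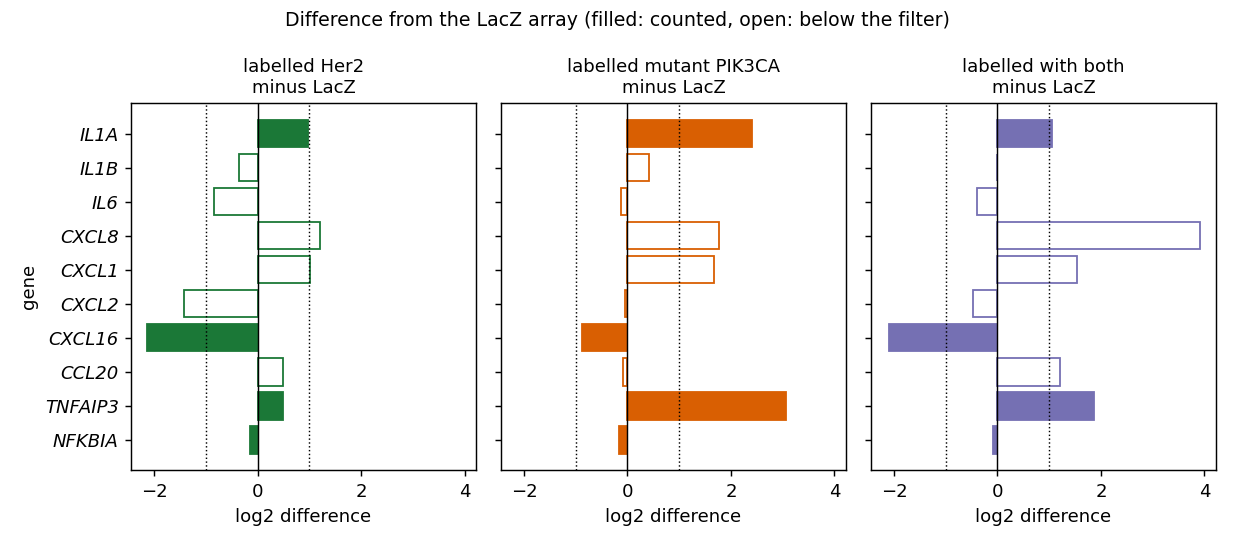
Log2 difference from the LacZ array (horizontal axes) for each gene (vertical axis) on the arrays labelled Her2, mutant PIK3CA and both, with dotted lines at 1 and -1, and filled bars for the 4 counted genes. CXCL8 and CXCL1 are above 1 in all 3 panels, CXCL16 is below 0 in all 3, and TNFAIP3 has the longest bar for mutant PIK3CA (3.06).

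The feedback inhibitors TNFAIP3 and NFKBIA differed in pattern. TNFAIP3 read 3.47 on the array labelled Her2, 6.03 on that labelled mutant PIK3CA, 4.83 on that labelled with both and 2.97 on the LacZ array. The array labelled mutant PIK3CA was the highest, 3.06 above LacZ (8.33-fold), and 22 of all 20934 genes had a larger difference upwards there. The array labelled with both was 1.86 above LacZ, 1.36 above that labelled Her2 (0.61 after cyclic loess of the counted genes), and lower than that labelled mutant PIK3CA (-1.20). NFKBIA read 7.21 with Her2, 7.19 with mutant PIK3CA, 7.27 with both and 7.35 with LacZ. Its range of 0.16 was the narrowest of the 10 genes, and no difference from LacZ exceeded 0.16 in size. Both genes hold kB motif letters in the promoter stretch shown above.

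The summed level of basal epithelial markers was highest on the array where IL1A and TNFAIP3 were, but not every marker was. The 6 measured genes of 10 summed to 1388 on the array labelled Her2, 3025 on that labelled mutant PIK3CA, 1009 on that labelled with both and 1692 on LacZ. LAMB3 (a laminin chain) and ITGA6 (an integrin) were higher than LacZ by 1.54 and 1.26 on the array labelled mutant PIK3CA. Their part in the values of IL1A and TNFAIP3 was not tested.

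Counted by fold, the array labelled mutant PIK3CA had 2 of the 4 counted members at least 2-fold higher than LacZ (IL1A and TNFAIP3) and 0 lower, where 11.2% of all counted genes differed that much, 7.07% higher and 4.08% lower. The array labelled Her2 had 1 of 4, CXCL16, which was lower, with 5.52% of counted genes past the line, 2.94% higher and 2.57% lower. With both labels there were 3 of 4, with IL1A and TNFAIP3 higher and CXCL16 lower, and 24.9% of counted genes past it, 13.8% higher and 11.1% lower. Since CXCL16 and TNFAIP3 entered the count through a single array, these shares cannot be read as an excess. The medians of the 4 counted members were 0.18 with Her2, 1.12 with mutant PIK3CA and 0.49 with both, against 0.02, 0.07 and 0.04 for all counted genes. These 3 comparisons share the LacZ array, so a high or low reading there enters all of them.

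Without the filter, all 10 members were set against all 20934 genes. On the array labelled Her2, CXCL8 and CXCL1 were at least 2-fold higher and CXCL2 and CXCL16 lower than LacZ, 4 of 10, with 3.53% of all genes past the line, 1.86% higher and 1.67% lower. On the array labelled mutant PIK3CA, IL1A, CXCL8, CXCL1 and TNFAIP3 were higher and 0 lower, with 4.54% past it, 2.61% higher and 1.93% lower. On the array labelled with both, those 4 and CCL20 were higher and CXCL16 lower, 6 of 10, with 10.9% past it, 6.51% higher and 4.44% lower. Most of the 20934 genes lie near background, where large differences are rare, so these percentages are a low bar for genes that are well measured. The medians over the 10 members stayed small, at 0.17 with Her2, 0.19 with mutant PIK3CA and 0.53 with both, against -0.02, -0.0038 and -0.04 for all genes.

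The array labelled with both was also set against each single-gene array. Against that labelled mutant PIK3CA, IL1A, CXCL16 and TNFAIP3 were at least 2-fold lower, 3 of the 4 counted members, with 18.9% of counted genes past the line, 10% higher and 8.9% lower. Without the filter, 5 of 10 members were past it, the same 3 and CXCL8 and CCL20, which were higher by 2.14 and 1.28. Of all genes 8.77% were past it, 5.28% higher and 3.48% lower. Since TNFAIP3 was counted through the array labelled mutant PIK3CA alone, a lower value here was favoured. The 3 of 4 thus cannot be read as an excess. Against that labelled Her2, TNFAIP3 was the 1 counted member past the line, higher there, with 15.2% of counted genes past it, 9.09% higher and 6.12% lower. Without the filter CXCL8 joined it, higher by 2.71, which made 2 of 10, with 7.05% of all genes past it, 4.41% higher and 2.64% lower. IL1A and CXCL16 were nearly level there, at 0.09 and 0.03. For CXCL16 this depends on the scaling, since quantile normalization and cyclic loess of the counted genes gave -1.32 and -1.84. Over all named genes they gave -0.09 and 0.01.

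Departure from additivity compares the array labelled with both with the sum of the single-gene differences from LacZ. It was -2.31 for IL1A, -1.70 for TNFAIP3 and -1.14 for CXCL1, so the array labelled with both read below the sum of the single differences. It was 1.01 for CXCL2, 0.94 for CXCL8, 0.91 for CXCL16 and 0.80 for CCL20, where the array labelled with both read above that sum, and between -0.07 and 0.55 for IL1B, IL6 and NFKBIA. Among counted genes 18.5% departed by at least 1 in size, 9.48% upwards and 9.07% downwards, as did 2 of the 4 counted members, both downwards. Without the filter 4 of the 10 members did so, CXCL2 upwards and IL1A, CXCL1 and TNFAIP3 downwards, with 10.2% of all genes, 5.81% upwards and 4.35% downwards. TNFAIP3 was counted through the array labelled mutant PIK3CA alone, which is subtracted in this measure. The 2 of 4 thus cannot be read as an excess. For CXCL16 the sign turned, to -0.37 and -0.47, after quantile and cyclic loess normalization of the counted genes. Over all named genes it was kept, at 0.78 and 0.85. Exchanging the labels of the single-gene arrays leaves this measure as it is.

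**Figure D3:**
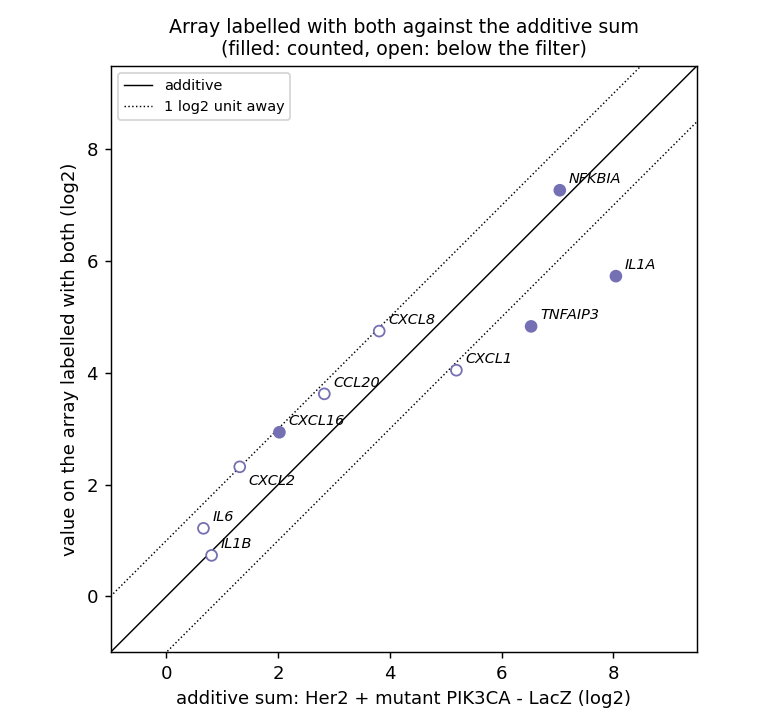
Value on the array labelled with both (vertical axis, log2) against the sum of the values on the arrays labelled Her2 and mutant PIK3CA minus LacZ (horizontal axis, log2), 1 point a gene, filled where counted. IL1A and TNFAIP3 lie below the lower dotted line, by -2.31 and -1.70 from the solid line of additivity, and CXCL8 at 0.94 above that line.

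The chromosomal neighbours of the members were examined in order. The cluster on chromosome 4 runs from CXCL8 through CXCL6, PF4V1, CXCL1, PF4, PPBP, CXCL5 and CXCL3 to CXCL2. CXCL3, a close relative of CXCL1 and CXCL2, read 0.70 with Her2, 0.83 with mutant PIK3CA, 0.79 with both and 0.76 with LacZ. CXCL6, also a neutrophil chemokine, read 0.88, 1.11, 0.75 and 0.81 on the same arrays. Both stayed below the median of each array, so the higher readings of CXCL8 and CXCL1 were not seen along the whole cluster. In the IL-1 cluster on chromosome 2, the genes between IL1A and IL1RN in chromosomal order, IL1B, IL37, IL36G, IL36A, IL36B, IL36RN and IL1F10, stayed at or below 1.17 on the 4 arrays, whereas IL1A reached 7.08. IL1RN, the secreted antagonist of the IL-1 receptor at the far end, read 1.04 with Her2, 2.29 with mutant PIK3CA, 1.28 with both and 1.30 with LacZ. It was thus highest on the array where IL1A was highest.

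**Figure D4:**
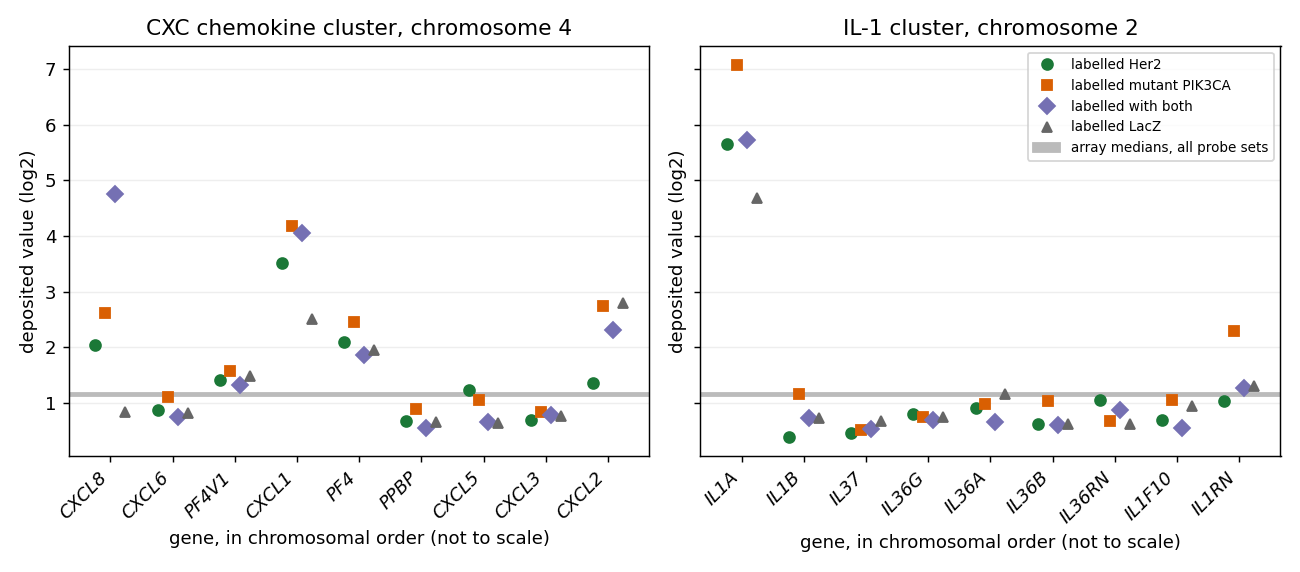
Deposited log2 values (vertical axes) of the genes of the CXC chemokine cluster and the IL-1 cluster in chromosomal order (horizontal axes, not to scale), 1 point an array, with the array medians in grey. CXCL8, CXCL1, CXCL2 and IL1A stand clear of the grey band on 1 or more arrays, while CXCL3 (0.70 to 0.83) and IL1B (0.38 to 1.16) do not.

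Of 18 listed NF-kB subunits, kinases and adaptors, 16 were measured and 8 counted, and 0 of the 8 differed from LacZ by 2-fold on any array. Of all counted genes 5.52% did so with Her2, 11.2% with mutant PIK3CA and 24.9% with both. The numbers of counted genes past the line in this and the next lists stand against these shares. Without the filter 1 of the 16 did so, the kinase gene MAP3K14, at -1.04 with both. Of all genes without the filter 10.9% were past the line in that comparison, 6.51% higher and 4.44% lower. The subunit genes NFKB1 and RELA read 5.41 and 5.50 with Her2, 5.08 and 5.53 with mutant PIK3CA, 5.27 and 5.29 with both, and 5.17 and 6.10 with LacZ. RELA was thus lower on all 3 arrays than on LacZ, at most by a difference of -0.82. Among other feedback inhibitors, 14 were measured and 6 counted. NFKBIB (IkB-beta) was the 1 of these past 2-fold against LacZ, at -1.22 on the array labelled with both.

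In the IL-1 family and receptor list, 18 of 19 genes were measured and 2 counted. IL1R1, the signalling receptor of both IL-1 forms, read 4.75 with Her2, 4.04 with mutant PIK3CA, 7.07 with both and 4.28 with LacZ. It stood 2.80 above LacZ on the array labelled with both, the only array where it reached the filter, so it had to differ to be counted. Its high array is not that of IL1A. Among receptors and shedding enzymes of the members, 10 of 11 were measured and 5 counted. IL6R read 5.01 on the array labelled with both, against 6.42 on LacZ, and IL6ST, its signalling partner, 7.40 against 5.98. CXCR2 stayed at 0.70 to 1.14 on the 4 arrays.

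Of 23 other chemokines and cytokines, 22 were measured and 0 reached the filter. The highest reading among them was that of LIF, a cytokine of the IL-6 family, at 4.31 on the array labelled mutant PIK3CA. Of 23 other NF-kB target genes, 20 were measured and 9 counted. Past 2-fold against LacZ were PTX3 (a secreted pentraxin), by 3.92 with Her2 and 3.13 with both, SAA1 (serum amyloid A), by -1.04 with Her2 and 1.61 with both, C3 (a complement protein), by -1.91 with mutant PIK3CA, and PLAU (urokinase), by -1.47 with both. None of these 4 was highest on the array labelled mutant PIK3CA, as TNFAIP3 and IL1A were, whereas the counted genes IER3 (7.68) and KLF6 (7.92) were, by 0.04 and 0.18 over LacZ. Below the filter, PTGS2 (cyclooxygenase-2) was highest there too, by 1.11 over LacZ, as was EFNA1 by 0.83. The LacZ reading of PTGS2 (1.22) was close to the array median of 1.17, so this difference does not show whether the transcript changed. Over all 20 measured genes of the list, 1 was at least 2-fold higher than LacZ on the array labelled mutant PIK3CA. Lower there were 2, C3 and TRAF4 (-1.12), where 2.61% of all genes were that much higher and 1.93% lower. The median of the 9 was -0.22 with Her2, -0.13 with mutant PIK3CA and -0.15 with both.

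In the IL-6 and STAT3 list all 11 genes were measured and 6 counted. On the array labelled with both, 4 of the 6 were at least 2-fold lower than LacZ: STAT3 (the transcription factor of the pathway) at -1.05, PIM1 (a kinase) at -1.22, JUNB at -1.35 and MUC1 (a mucin) at -1.32. With 24.9% of counted genes past the line in that comparison, the median of the 6 was -1.14, against 0.04 for all counted genes. Over all 11 measured genes the median was 0.05, against -0.04 for all genes. JAK2 (a kinase) and LIFR (a receptor), below the filter, were higher than LacZ by 1.48 and 2.64. The LIFR value on LacZ (0.87) lay below the array median, so that difference rests on a reading at background. On the array labelled mutant PIK3CA, PIM1 was higher than LacZ, by 1.29, and JUNB lower, by a difference of -1.31. PIM1 was counted through that array alone, so it had to differ to be counted.

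CXCL8 had the widest range, and the 5 counted genes nearest to it were sought by the Euclidean distance between the 3 log2 differences from LacZ. They were SRPX at 0.59, SMC2 (a condensin subunit) at 0.76, KIF2C (a mitotic kinesin) at 0.76, PLCXD3 at 0.82 and NEIL3 (a DNA glycosylase) at 0.91. SRPX read 3.09 with Her2, 3.33 with mutant PIK3CA, 5.23 with both and 1.84 with LacZ. Each of the 5 genes reached the filter on the array labelled with both alone, so the filter favoured genes that are high there. All 3 differences rest on the same LacZ array, where CXCL8 was at background, so the distances are a description.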

How the data were processed

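RNA of 4 stably transfected MCF10A lines was measured on 1 Affymetrix array each. The submitters' processing notes name RMA and the oligo package. The deposited table holds their output as 1 log2 value for each probe set and array. No header states the log base, which was taken from RMA and the range of the values. Versions and filters are not stated. RMA normalizes between arrays, so a shift shared by all genes of an array would not be seen. Of 53617 probe sets, 23871 have 1 gene symbol, 1842 several and 27904 none in the platform annotation. Symbols were updated through gene identifiers (RefSeq, GRCh38.p14), which changed 90. A gene took its probe set with the highest mean, small RNAs, ERBB2 and PIK3CA were left out, and 4313 of 20934 genes passed the filter, a log2 value of 5 or more on any array. Log2 differences were computed from single arrays, with no test, and counted at 2-fold. No depth exists for arrays, and their number limits the precision. Counting was tested on simulated data.

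The members and lists were chosen with earlier results of these data known. Named were all members, up to 4 counted genes a list past 2-fold against LacZ, NFKB1, RELA, IL1RN, CXCR2 and CXCL3, the 5 genes nearest to the member of widest range, and examples from the marker lists and neighbouring genes. MAP3K14, IER3, KLF6, PTGS2, EFNA1, TRAF4, JAK2 and LIFR were chosen with their values in view. Alternatives were other filters (none, 3, 7), quantile normalization, cyclic loess (3 iterations, limma 3.58.1 in R 4.3.3), the mean of all probe sets and a 1.5-fold line.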

Additional observations from a re-analysis of the deposited data

Results flagged for a closer look

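Each introduced gene is named by the labels of a pair of comparisons that share no array, 1 against LacZ and 1 between the array labelled with both and that labelled with the other gene alone. ERBB2 itself went against the single-gene labels, so these are differences between labelled arrays. Members whose difference changed sign between them are listed with the second difference minus the first. That change is the same number as the departure from additivity given above, so it is not a separate result. With 1 array a group none of these changes was tested. For the Her2 label, IL1A changed by -2.31 (0.97 against LacZ, -1.35 between the arrays labelled with both and mutant PIK3CA), TNFAIP3 by -1.70 (0.50 and -1.20) and CXCL1 by -1.14 (1.01 and -0.13). For the mutant PIK3CA label, CXCL2 changed by 1.01 (-0.05 and 0.95), CXCL16 by 0.91 (-0.89 and 0.03), CCL20 by 0.80 (-0.08 and 0.72) and IL6 by 0.55 (-0.12 and 0.43). For CXCL16 the second difference was -1.32 and -1.84 after quantile and cyclic loess normalization of the counted genes and -0.09 after quantile normalization of all named genes, so the change of sign was not kept there. NFKBIA changed by 0.23 for both labels, with every difference under 0.17 in size.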

How the results depend on the processing

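No paired analysis was possible because each group has 1 array. The counts of members past 2-fold depend on the filter, because 4 members pass it at 5, 7 at 3 and 2 at 7. Without a filter they were 4 (Her2 against LacZ), 4 (mutant PIK3CA against LacZ), 6 (both against LacZ), 5 (both against mutant PIK3CA) and 2 (both against Her2). With a filter at 3 they were 3, 4, 6, 5 and 2 in the same order, and at 7 they were 0, 1, 1, 1 and 0. Quantile normalization of the counted genes gave 2 for both against Her2, and a 1.5-fold line gave 2 for Her2 against LacZ. The other alternatives kept the counts within 1.5 times, but not always the genes. For both against Her2, cyclic loess of the counted genes kept the count at 1 with another gene in the other direction. TNFAIP3 fell below the line there, at 0.61, and CXCL16 was past it, at -1.84. In all, 228 member values were recomputed. Of these, 60 took the mean of all probe sets and could not move, since each member has 1 probe set. The rest came from other scalings, including quantile and cyclic loess normalization of all named genes, which were added after seeing the data. Among the rest, 0 values past 2-fold turned direction and 8 crossed the line. IL1A in both against LacZ was 0.94 and 0.98 under quantile normalization of the counted and of all named genes, and the departure of CXCL2 was 0.93 and 0.95 after quantile and cyclic loess normalization of all named genes. Cyclic loess of the counted genes put CXCL16 at -1.37 in mutant PIK3CA against LacZ. The causes were not tested. Readings near the array medians limit what IL1B, IL6, CXCL8 (on LacZ) and CXCL2 (on the array labelled Her2) can show.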

Other observations

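Some genes of the pathway lists stayed below the filter but differed more than 2-fold, and they were chosen after their values were seen. NFKBIZ, an inducible nuclear IkB protein, read 2.87 on the array labelled Her2, 4.41 on that labelled mutant PIK3CA, 2.98 on that labelled with both and 2.39 on LacZ, so it was highest where TNFAIP3 and IL1A were highest. LIF read 3.25, 4.31, 3.14 and 2.98 on the same arrays. IL1R2, the decoy receptor of interleukin-1, read 1.58 with Her2, 3.14 with mutant PIK3CA, 4.62 with both and 1.84 with LacZ, and was highest on the array where IL1R1 was highest. LIFR, a receptor of LIF, read 1.65, 1.44, 3.51 and 0.87 on these arrays. CCL2, a monocyte chemokine, read 1.20 with Her2, 0.96 with mutant PIK3CA, 2.47 with both and 0.69 with LacZ. The LacZ values of LIFR and CCL2 lay below the median of that array, so their differences from LacZ rest on readings at background. Other genes of these lists below the filter were over 2-fold lower than LacZ, so such differences did not all run upwards. TNFSF10 differed by -1.22 with mutant PIK3CA and -1.30 with both, TNFAIP2 by -1.24 with both and SOCS1 by -1.17 with Her2.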
